A study of Mus musculus with 6 samples.

Results

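The AP-1 subunit genes described here are Fos, Fosb, Fosl1, Fosl2, Jun, Junb, Jund, Atf3, Batf and Batf3, found by symbol in an RNA-seq table of mouse hematopoietic stem and progenitor cells (HSPCs). All 10 had an entry among the 23997 gene symbols of the table, and all 10 passed the filter on low values. The cells were sorted from bone marrow as Lin-Sca1+cKit+ (LSK), a gate for stem cells and early progenitors that leaves out cells with surface markers of mature blood lineages. A figure legend of the study writes Lin-Sca1-cKit+ for these cells, while its methods give Lin-Sca1+cKit+. Libraries came from 3 Mirc11-/- and 3 wildtype RNA preparations, each of pooled cells from 3 to 4 mice aged 6 to 8 weeks, on a C57BL/6 background (C57BL/6J in the study's methods), with no stimulus given (the labels call the treatment normal hematopoiesis) and with the same batch label for all 6. Mirc11-/- mice carry a germline deletion of the miRNA genes Mir23a, Mir27a and Mir24-2, not one limited to blood cells, so the marrow around these HSPCs lacked them too. The family was selected on the genotype comparison of these same libraries: it was chosen by the expression differences of members such as Fos, Fosb, Jun and Atf3, already seen to be lower in Mirc11-/- HSPCs. The genotype differences below are therefore given as a description, and nothing is read from the tests across all genes that are printed beside them.

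AP-1 is a dimer of basic leucine zipper (bZIP) proteins that binds DNA at the TPA response element and, in some pairings, at the cAMP response element (CRE). Fos proteins do not pair with each other and need a Jun partner, whereas Jun proteins also form homodimers. Fos, Fosb, Jun, Junb and Atf3 are immediate-early genes: a stimulus to MAP kinases switches them on within minutes and without new protein synthesis. By the study's methods, marrow went through ACK lysis, antibody staining and sorting before RNA was isolated. The levels below are those after this handling, and its effect on them was not tested.

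Reads in genes came to 15029379 to 17051541 in the Mirc11-/- libraries and 15772826 to 16250826 in the wildtype libraries. A normalized count is the reads of a gene after scaling for library size alone, with no correction for gene length. The deleted miRNA genes Mir23a, Mir27a and Mir24-2 had 0 reads in the Mirc11-/- libraries, which allows up to 3 by counting error, against 51, 54 and 73 reads over the 3 wildtype libraries. All 13 LSK markers were above 0 in every library, and their summed normalized count was 29394, 37443 and 51917 in Mirc11-/- libraries 1, 2 and 3, against 43662 to 51911 in wildtype libraries. Kit had 8352 ± 1656 normalized counts in Mirc11-/- and 8939 ± 432 in wildtype libraries, and Ly6a, the Sca-1 gene, 463 ± 81.9 and 542 ± 125 (SD, n = 3 each). The summed count of 19 erythroid markers was 58192, 53337 and 24016 in Mirc11-/- libraries 1, 2 and 3, against 22517 to 31944 in wildtype libraries. Their defining members Gata1, Klf1 and Epor were above 0 in every library, and 19 of 19 had a positive log2 fold change, though 2 pairs of globin entries (Hba-a1 and Hba-a2, Hbb-b1 and Hbb-bs) held identical values. Neutrophil markers summed to 149047 to 243428 against 173612 to 205184, monocyte and macrophage markers to 7256 to 15584 against 8088 to 10369, B cell markers to 585 to 980 against 743 to 805, T and NK cell markers to 1735 to 3271 against 3210 to 3549, and megakaryocyte markers to 1893 to 2570 against 1598 to 2226 (Mirc11-/- against wildtype). The median log2 fold change was 0.93 over the erythroid markers, 0.80 over the B cell markers, with 8 of 10 above 0, and -0.51 over the T and NK cell markers, with 5 of the 7 past the filter below 0. In sorted bulk cells, fewer cells of a type and less RNA per cell cannot be told apart.

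The AP-1 subunits fell into an abundant and a scarce set in LSK cells. To compare genes with each other, reads were converted to RPKM, which divides them by the length of the longest annotated transcript and by the library's total of reads in genes. On this scale Jun averaged 557 ± 190 in Mirc11-/- and 1099 ± 164 in wildtype libraries, and Fos 496 ± 130 and 1044 ± 135 (SD, n = 3 each). The ranges of Jun and Fos overlapped in both genotypes. Within each wildtype library Jun was slightly above Fos, with Fos per Jun at 0.99, 0.927 and 0.938. In Mirc11-/- libraries 1, 2 and 3 that ratio was 0.935, 1.03 and 0.762, so the order was mixed. The order also changed with the length chosen, as given below. Fosb followed at 270 ± 95.4 and 584 ± 123, Jund at 242 ± 89.7 and 426 ± 62.7, and Junb at 151 ± 36.6 and 263 ± 76.1 (SD, n = 3 each). In wildtype HSPCs no library of Fosb overlapped with Jund or of Jund with Junb. In Mirc11-/- HSPCs both of these neighbors overlapped in range. Within libraries Jund was above Junb each time (152, 243 and 332 against 110, 180 and 164 in libraries 1, 2 and 3). Fosb was above Jund in libraries 1 and 2 but not in library 3. With mean transcript lengths Jund and Junb overlapped in wildtype HSPCs as well, and Junb was above Jund in Mirc11-/- libraries 1 and 2. Jund has 1 annotated transcript, of 1668 bases, so this check left its own length unchanged. Its RefSeq extent, given below, is longer, and with a longer length its level would be lower. The place of Jund among these genes therefore depends on the annotation.

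The other 5 subunits lay far below. Batf, whose protein pairs with Jun proteins in lymphoid and dendritic cells, averaged 18.0 ± 2.87 RPKM in Mirc11-/- and 18.7 ± 0.65 in wildtype libraries (SD, n = 3 each). Atf3, a stress-induced bZIP repressor, averaged 4.92 ± 3.79 and 25.8 ± 16.7. Fosl2, which encodes Fra-2, averaged 4.56 ± 1.11 and 3.52 ± 0.77. Fosl1, which encodes Fra-1, averaged 1.04 ± 0.04 and 1.497 ± 0.66. Batf3, known for its role in dendritic cells, averaged 0.31 ± 0.16 and 0.56 ± 0.09. In wildtype HSPCs Atf3 and Batf overlapped, and in Mirc11-/- HSPCs Atf3 lay below Batf without overlap and overlapped with Fosl2 instead. With the mean length of each gene's annotated transcripts in place of the longest, mean RPKM of Fos was above that of Jun. It was 957 against 557 in Mirc11-/- libraries, where the ranges overlapped, and 2015 against 1099 in wildtype libraries, where they did not. Within Mirc11-/- libraries 1, 2 and 3 Fos per Jun was then 1.81, 1.99 and 1.47. The order of these 2 genes thus depended on the length chosen. By normalized count, which is not per length, Jun ranked 7, Fos 22 and Fosb 23 among the 15662 genes past the filter.

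**Figure D1:**
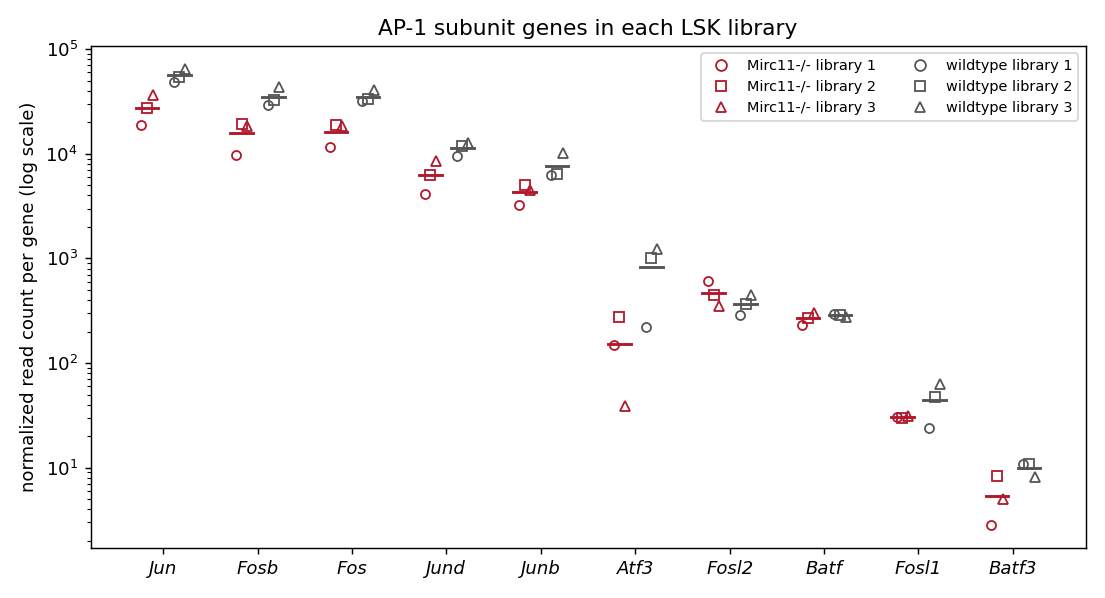
Normalized read counts of the 10 AP-1 subunit genes on a log scale, in Mirc11-/- (red) and wildtype (gray) LSK libraries. Each marker is a library, and a bar is the mean over a genotype. For Jun, Fosb, Fos, Jund and Junb every Mirc11-/- library lies below every wildtype library, and for the other 5 genes the groups overlap.

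The Jun subfamily was lower in every Mirc11-/- library than in any wildtype library. Jun had normalized counts of 18973, 27551 and 36709 in Mirc11-/- libraries 1, 2 and 3, against 48504, 54738 and 65129 in wildtype libraries. Its mean in Mirc11-/- HSPCs was 49.4% of that in wildtype, a log2 fold change of -1.06 (SE 0.22). Junb, whose protein restrains the proliferation of myeloid progenitors in mice, had 3216, 5085 and 4553 in Mirc11-/- libraries, against 6286, 6423 and 10151 in wildtype libraries. The groups did not overlap for Junb, and wildtype library 3 stood above the other two. The log2 fold change was -0.82 (SE 0.21), and -0.59 without wildtype library 3. Jund, the subunit usually described as constitutive, had 4101, 6317 and 8503 in Mirc11-/- libraries, against 9477, 11878 and 12788 in wildtype libraries. The highest Mirc11-/- library and the lowest wildtype library of Jund were close to each other, and the log2 fold change was -0.90 (SE 0.23). Jun lies on chromosome 4 from 95049036 to 95052222, and the single exon of its annotated transcript overlaps the antisense transcript Junos, which was not analysed here. The longest transcripts of Junb and Jund have a single exon as well. Both genes lie on chromosome 8, the chromosome of Mirc11, Junb from 84976909 to 84978748 and Jund from 70697739 to 70700616 (GRCm38, RefSeq). Junb is 0.768 Mb from Mir23a and Jund 13.5 Mb, and Jund overlaps Gm11175 on the other strand, which was not analysed here. The exons of Junb overlap those of Prdx2, a peroxiredoxin gene on the other strand with normalized counts of 7038, 6417 and 4520 in Mirc11-/- libraries, against 5237, 4295 and 4102 in wildtype libraries. No source states that reads were counted by strand, so reads of the shared part cannot be told apart.

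Fos and Fosb were lower to about the same degree. Fos had normalized counts of 11732, 18785 and 18490 in Mirc11-/- libraries 1, 2 and 3, against 31741, 33558 and 40372 in wildtype libraries. Mirc11-/- library 1 was the lowest, libraries 2 and 3 were nearly equal, and none came near the wildtype range. The mean was 46.4% of wildtype, a log2 fold change of -1.13 (SE 0.18). Fosb had 9725, 19371 and 18657 in Mirc11-/- libraries, against 29532, 32753 and 43734 in wildtype libraries. The order of the 6 libraries was that of Fos, and the log2 fold change was -1.20 (SE 0.26). Fos lies on chromosome 12 from 85473890 to 85477274 and Fosb on chromosome 7 from 19302696 to 19310118 (GRCm38, RefSeq).

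The Fos-related genes Fosl1 and Fosl2, whose proteins lack the strong transactivation domain of Fos, did not share this pattern. Fosl2 had 604, 452 and 353 normalized counts in Mirc11-/- libraries, against 288, 366 and 451 in wildtype libraries. It was highest in Mirc11-/- library 1, where Fos, Fosb and the Jun subfamily were lowest. The groups overlapped, and the log2 fold change was 0.34 (SE 0.22), from 0.14 to 0.53 with any 1 library left out. Fosl1 had 30.3, 30.1 and 31.2 in Mirc11-/- libraries, against 23.7, 47.6 and 62.8 in wildtype libraries, with a log2 fold change of -0.43 (SE 0.36). The Mirc11-/- values of Fosl1 lay within the wildtype range. Without wildtype library 1 its log2 fold change was -0.82, and without wildtype library 3 it was -0.14. Fosl1 overlaps exons of Ccdc85b on the opposite strand, which had 443 ± 57.0 normalized counts in Mirc11-/- and 435 ± 14.4 in wildtype libraries (SD, n = 3 each).

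Atf3 had the largest fold difference of the family and the largest spread. Its normalized counts were 148, 274 and 39.2 in Mirc11-/- libraries 1, 2 and 3, against 219, 1004 and 1236 in wildtype libraries. Mirc11-/- library 2 was above wildtype library 1, so the groups overlapped. The log2 fold change was -2.46 (SE 0.77), and it was -1.68 without Mirc11-/- library 3 and -3.24 without wildtype library 1. Among the abundant subunits Mirc11-/- library 1 was the lowest, whereas for Atf3 it was library 3. Batf had 231, 272 and 304 in Mirc11-/- libraries, against 294, 286 and 276 in wildtype libraries, a log2 fold change of -0.09 (SE 0.14) that was 0.01 without Mirc11-/- library 1. Batf3 had 3, 8 and 5 reads in Mirc11-/- libraries, against 11, 11 and 8 in wildtype libraries, and its log2 fold change of -0.86 (SE 0.46) rests on these counts and was -0.54 without Mirc11-/- library 1.

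By limma on log2(normalized count + 1), with Benjamini-Hochberg adjustment over all 15662 genes and a threshold of 0.05, 0 of the 10 members were called, where the background was 0.0255% of genes called lower and 0.00638% called higher. At an unadjusted p under 0.05 there were 6 members lower (Fos, Fosb, Jun, Junb, Jund and Atf3) and 0 higher, against 4.09% and 4.15% of all genes. The edgeR quasi-likelihood test on the recovered reads called 0 members, against 0.0192% of all genes lower and 0.00638% higher. DESeq2 on the same reads called Fos, Fosb, Jun, Junb and Jund lower, 5 of 10, where it called 0.543% of all genes lower and 0.236% higher. Without Mirc11-/- library 3 limma called Fos, Fosb, Jun and Jund lower, and its calls over all genes then went up to 1.46% lower and 1.94% higher. Every Mirc11-/- library was below every wildtype library for 5 of the 10 members and for 6.53% of all genes, and every one was above for 0 members and 6.42% of all genes. The median log2 fold change was -0.88 over the members and 0.00246 over all genes. A log2 fold change of -0.5 or below was found for 7 members and 7.13% of all genes, and one of -1 or below for 4 members and 1.91%. Of the 4420 genes whose normalized counts averaged 1000 or more, 10 (0.226%) had a log2 fold change of -1 or below, and Fos, Fosb and Jun were 3 of those 10. The members were chosen with this comparison known, so nothing is read from these counts, and p-values would in any case measure only the spread between 3 pools of mice per genotype.

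**Figure D2:**
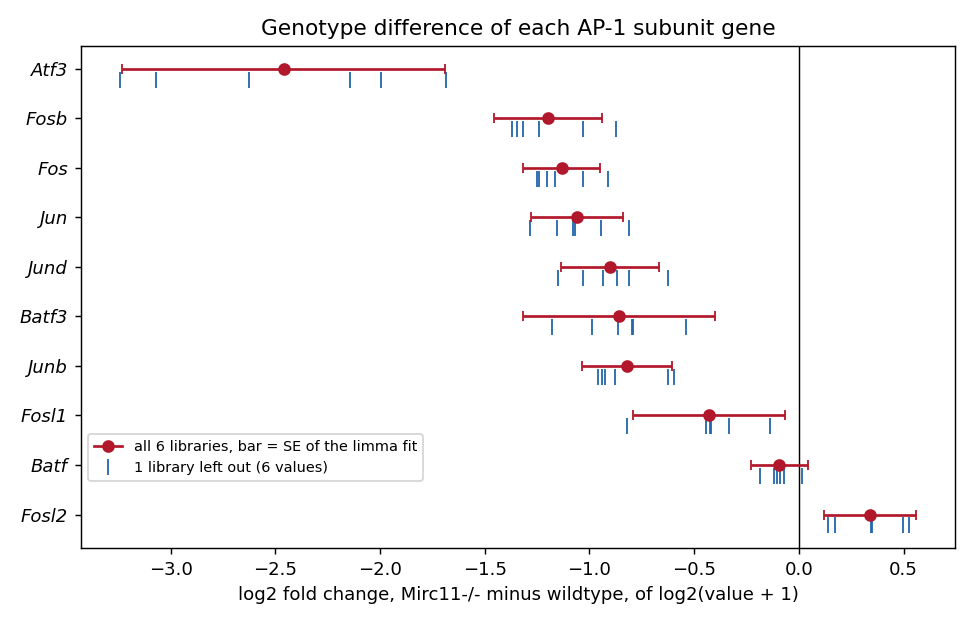
Log2 fold change of each AP-1 subunit gene, Mirc11-/- minus wildtype, on the log2(normalized count + 1) scale. Red points are the fit to all 6 libraries with its SE, and blue ticks are the 6 values with a single library left out. Atf3 has the widest spread, from -3.24 to -1.68, and Fosl2 is the only member whose values all lie above 0.

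The summed level of AP-1 transcripts was lower in every Mirc11-/- library, whereas the ratio of the Fos to the Jun subfamily overlapped between the genotypes. The 10 genes took 0.302%, 0.501% and 0.571% of the reads in genes in Mirc11-/- libraries 1, 2 and 3, against 0.795%, 0.875% and 1.09% in wildtype libraries. Their summed level was 1745 ± 520 RPKM in Mirc11-/- and 3467 ± 565 in wildtype libraries (SD, n = 3 each). Of that level the Fos subfamily (Fos, Fosb, Fosl1 and Fosl2) made up 44.3% ± 2.99 in Mirc11-/- and 47.1% ± 0.89 in wildtype libraries, and the Jun subfamily (Jun, Junb and Jund) 54.3% ± 3.19 and 51.6% ± 0.58 (SD, n = 3 each). Jun alone was 31.8% ± 2.81 and 31.8% ± 0.50, and Fos 28.7% ± 1.97 and 30.2% ± 1.19. These shares hold for the longest transcript as length. With mean transcript lengths the order of the subfamilies turned, to 54.6% ± 2.60 in Mirc11-/- and 57.5% ± 0.99 in wildtype libraries for the Fos subfamily and 44.1% ± 2.79 and 41.2% ± 0.65 for the Jun subfamily (SD, n = 3 each). The shares come from transcripts and carry no information on the dimers formed.

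In RPKM with the longest transcript as length, the ratio of the Fos to the Jun subfamily came to 0.81, 0.927 and 0.72 in Mirc11-/- libraries 1, 2 and 3, against 0.941, 0.886 and 0.914 in wildtype libraries. The groups overlapped through Mirc11-/- library 2, and the mean log2 ratio differed by -0.17, with an SD of 0.18 among Mirc11-/- and 0.04 among wildtype libraries. The difference was -0.26 without Mirc11-/- library 2 and -0.08 without Mirc11-/- library 3. With mean transcript lengths the ratio was above 1 in every library, at 1.24, 1.38 and 1.11 in Mirc11-/- libraries, against 1.45, 1.37 and 1.37 in wildtype libraries, and the log2 difference was again -0.17. With the longest transcript, Fos per Jun was 0.935, 1.03 and 0.762 in Mirc11-/- libraries, against 0.99, 0.927 and 0.938 in wildtype libraries, and these overlapped as well. Junb per Jun was 0.299, 0.325 and 0.219 in Mirc11-/- libraries, against 0.228, 0.207 and 0.275 in wildtype libraries, again with overlap.

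Among the 8 ratios computed, those of Atf3 to the Jun subfamily and of Fosl2 to Fos differed most between the genotypes. Atf3 per transcript of the Jun subfamily was 0.0073, 0.00907 and 0.00103 in Mirc11-/- libraries, against 0.00453, 0.0182 and 0.0185 in wildtype libraries. The groups overlapped, since wildtype library 1 was below Mirc11-/- libraries 1 and 2. The mean log2 ratio differed by -1.49, by -0.50 without Mirc11-/- library 3 and by -2.16 without wildtype library 1. Fosl2 per Fos was 0.0166, 0.00775 and 0.00616 in Mirc11-/- libraries, against 0.00293, 0.00352 and 0.0036 in wildtype libraries, a difference of 1.47 on the log2 scale with no overlap. The larger part of it came from Fos (log2 fold change -1.13), while Fosl2 itself (0.34) overlapped between the genotypes. Fos and Atf3 were among the members by which the family was chosen, so neither ratio is a separate result. No share of non-overlapping ratios was computed for other gene pairs. Fosl2 and the ratios within the subfamilies were singled out after their values were seen.

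**Figure D3:**
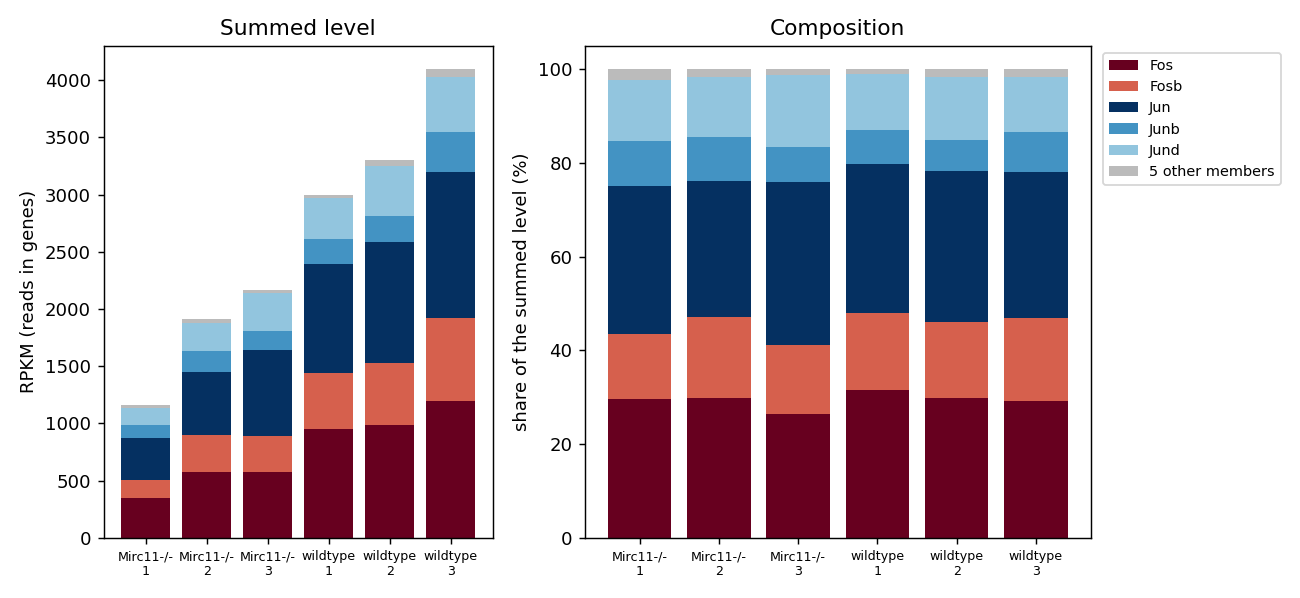
Left, summed level of the AP-1 subunit genes in each LSK library in RPKM with the longest transcript as length, and right, the share of each gene in that sum in percent. The Mirc11-/- bars are lower than the wildtype bars, with means of 1745 and 3467, and Jun has a mean share of 31.8% in both genotypes.

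The abundant members varied together between libraries of the same genotype, too. Over the 6 libraries the log2 normalized count of Fosb had a Pearson correlation of 0.99 with Fos, Jun 0.98, Junb 0.95 and Jund 0.95. The libraries share the genotype difference, so the deviations from each genotype's mean were compared as well, and they gave 0.999 for Fosb, 0.90 for Jun, 0.90 for Junb and 0.89 for Jund. Atf3 had 0.70 over the libraries and 0.11 within genotypes, Batf 0.60 and 0.70, and Fosl2 -0.58 and -0.35. Over the 10552 genes whose normalized counts averaged 100 or more, the genes outside the family most like Fos were Herc6 (0.99), a HECT domain gene of the ubiquitin system, Zfp36 (0.99), whose protein destabilizes mRNAs with AU-rich elements, the immediate-early gene Ier2 (0.98), Snord2 (0.98), a small nucleolar RNA, and the RNA helicase gene Ddx5 (0.98). Their log2 fold changes were -0.17, -1.03, -0.81, -0.87 and -0.49. Within genotypes their correlations with Fos were 0.95, 0.97, 0.91, 0.89 and 0.93, as high as those of Jun, Junb and Jund. By the correlation over the 6 libraries Fosb ranked 1, Jun 13, Junb 53 and Jund 59 among the 10552 genes. Varying together with Fos was therefore not particular to the family. These correlations are descriptions over 6 libraries, with no test.

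The sequences of the miRNAs encoded by the deleted genes were compared with the 3′ UTRs of the members. The mature sequences from RefSeq (GRCm38.p6) are given with the seed, bases 2 to 8, in capitals. They lie on the plus strand at chr8:84208563-84208583, chr8:84208727-84208747 and chr8:84208875-84208896, and no seed is shared among them.
miR-23a-3p: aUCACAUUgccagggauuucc
miR-27a-3p: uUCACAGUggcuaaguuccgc
miR-24-3p: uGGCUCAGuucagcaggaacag
A match to bases 2 to 8 was searched in the 3′ UTR, the longest where a gene had several, for 19264 genes of the table with all 10 members among them. Fosb, Fosl2 and Atf3 had matches, and the other 7 members had none in the UTR searched. Matches to miR-23a-3p were found in 1 member and 16.2% of all genes, to miR-27a-3p in 2 members and 17.3%, and to miR-24-3p in 1 member and 17.9%. The 4 sites are printed from the transcript annotation with the match in capitals, as places where a miRNA with such a seed could pair. The paper names a paralog cluster, Mirc22, that codes for miR-23b, miR-27b and miR-24-1. Its miRNAs were not compared here, so it cannot be assumed that these sites had no matching miRNA in Mirc11-/- cells.
Fosb, miR-23a-3p site: ctgattccaaAATGTGAaccccta
Fosb, miR-27a-3p site: agcgctttatACTGTGAatgagtg
Fosl2, miR-27a-3p site: cttgggctggACTGTGAgcagctc
Atf3, miR-24-3p site: tgatgaccagCTGAGCCactttgt
Fosb was lower in every Mirc11-/- library than in any wildtype library. Atf3 had a log2 fold change of -2.46 and Fosl2 one of 0.34, and for both the groups overlapped. A match is a description of sequence and not evidence of binding.

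Promoter windows from 250 bases before to 50 after the annotated start were available for 9 members (RefSeq, GRCm38.p6), all but Fosl1. Those of Fos, Fosb, Jun, Junb and Atf3, the immediate-early members, are printed because promoter elements of this class of genes are well known. Capitals mark matches on either strand to TGACG (the core of the CRE), TGACNTCA, TATAA, the CArG box and the MEF2 box. The windows are chr12:85473640-85473939 (plus strand), chr7:19309996-19310295, chr4:95052173-95052472, chr8:84978699-84978998 and chr1:191183284-191183583 (minus strand for the other 4). The window of Fosb is set on a transcript start that lies inside the outer bound of the gene given above, and its motif positions count from that start.
Fos: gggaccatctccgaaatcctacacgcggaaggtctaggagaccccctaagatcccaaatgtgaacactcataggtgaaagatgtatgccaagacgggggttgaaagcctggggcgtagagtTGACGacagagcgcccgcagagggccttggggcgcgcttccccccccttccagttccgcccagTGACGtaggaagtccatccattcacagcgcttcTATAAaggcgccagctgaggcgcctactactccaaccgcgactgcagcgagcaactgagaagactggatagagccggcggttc
Fosb: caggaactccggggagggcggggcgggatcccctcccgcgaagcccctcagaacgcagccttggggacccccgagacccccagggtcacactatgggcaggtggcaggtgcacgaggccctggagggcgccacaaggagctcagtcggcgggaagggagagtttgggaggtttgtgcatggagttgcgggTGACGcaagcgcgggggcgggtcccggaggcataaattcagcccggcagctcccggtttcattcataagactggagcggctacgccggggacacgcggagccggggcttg
Jun: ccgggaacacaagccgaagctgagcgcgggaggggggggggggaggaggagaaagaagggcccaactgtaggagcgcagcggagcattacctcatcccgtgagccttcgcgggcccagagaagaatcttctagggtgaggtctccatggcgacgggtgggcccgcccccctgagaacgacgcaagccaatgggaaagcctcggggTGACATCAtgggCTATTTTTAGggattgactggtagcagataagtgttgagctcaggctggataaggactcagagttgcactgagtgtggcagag
Junb: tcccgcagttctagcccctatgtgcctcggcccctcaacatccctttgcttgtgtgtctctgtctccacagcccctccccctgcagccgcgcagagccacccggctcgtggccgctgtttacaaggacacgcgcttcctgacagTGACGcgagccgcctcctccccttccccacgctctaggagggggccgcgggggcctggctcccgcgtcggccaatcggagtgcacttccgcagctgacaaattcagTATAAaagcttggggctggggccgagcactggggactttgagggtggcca
Atf3: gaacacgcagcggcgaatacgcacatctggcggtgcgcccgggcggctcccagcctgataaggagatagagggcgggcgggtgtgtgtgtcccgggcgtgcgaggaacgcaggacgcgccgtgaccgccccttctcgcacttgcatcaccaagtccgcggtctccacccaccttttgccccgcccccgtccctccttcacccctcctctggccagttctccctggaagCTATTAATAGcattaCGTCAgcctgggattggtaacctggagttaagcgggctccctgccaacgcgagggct
Of the 9 windows 5 held TGACG (Fos, Fosb, Junb, Atf3 and Batf), against 24.2% of the 20311 windows of genes in the table. Counting the first transcribed base as +1, the matches in Fos began at -129 and -66, in Fosb at -60, in Junb at -106, in Batf at -98 and in Atf3 at -7. The palindrome TGACGTCA, which contains TGACG, was in 0 of 9 and in 2.30% of all windows, and TGANTCA, which takes in the TPA response element, in 0 of 9 and 7.22%. TGACNTCA, which takes in TGACGTCA, was in the Jun window only, from -45 to -38, and in 8.02% of all windows. The MEF2 box, a site for the factors encoded by Mef2 genes, was in the windows of Jun, from -33 to -24, and Atf3, from -22 to -13, and in 0.497% of all windows. TATAA was in Fos and Junb, against 21.5% of all windows, CCAAT in Jun, Junb and Atf3, against 38.1%, and the CArG box in 0 of 9, against 1.45%. The windows end 250 bases upstream, so a missing match, such as the CArG box in Fos, does not cover sequence beyond that. Fosl2, Jund and Batf3 had no match to any of these motifs in the window, which says nothing of sequence outside it. The RefSeq extent of Jund is longer than the single-exon transcript used for its length. Its window may therefore not lie at the start of that transcript.

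**Figure D4:**
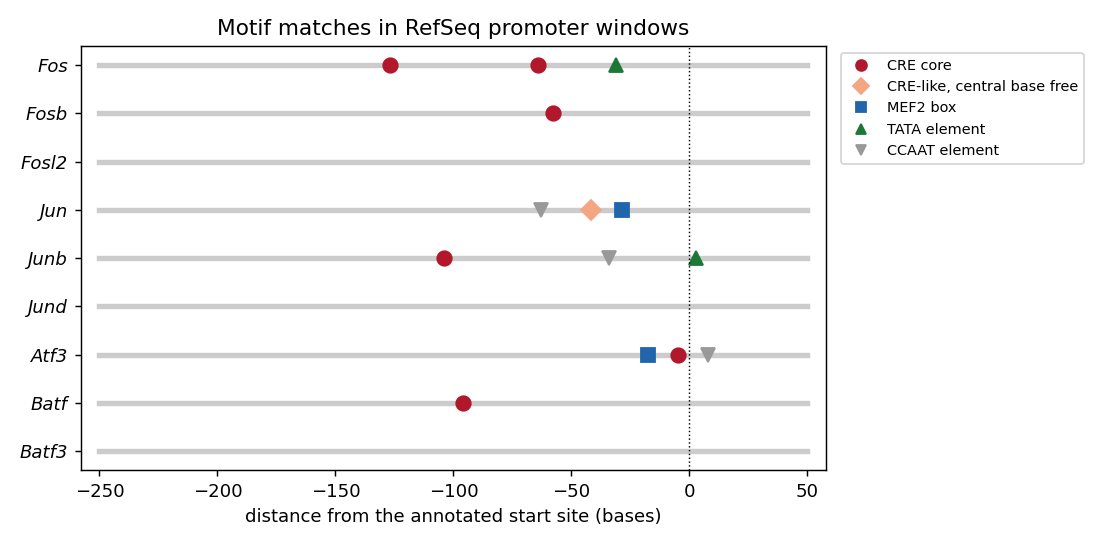
Positions of motif matches in the promoter windows of 9 AP-1 subunit genes, in bases from the annotated start site. The CRE core lies upstream of the start in Fos, Fosb, Junb, Batf and Atf3, and a MEF2 box lies within 33 bases of the start in Jun and Atf3.

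Genes around AP-1 were read from lists compiled from general knowledge, and limma over all genes called 0 of them in either direction (at an unadjusted p under 0.05, 4 lower and 2 higher over the 4 lists). Of 26 other bZIP genes that can pair with AP-1 proteins or compete with them, 10 had log2 fold changes below 0 and the list's median was 0.04, against 0.00246 over all genes. Atf4, which drives the integrated stress response, had 4136, 4455 and 4651 normalized counts in Mirc11-/- libraries, against 5784, 6182 and 7149 in wildtype libraries. The groups did not overlap, and the log2 fold change was -0.53 (SE 0.10). Limma missed the threshold for Atf4 over all genes (adjusted p = 0.322), while DESeq2 called it lower. Limma without Mirc11-/- library 3 called it lower too. Nfe2l1 had 2333 ± 32.5 in Mirc11-/- and 2241 ± 29.4 in wildtype libraries, and Creb1, a factor that binds the CRE, 2345 ± 53.2 and 2171 ± 230 (SD, n = 3 each).

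Of 28 measured kinases upstream of AP-1, 16 had log2 fold changes below 0 and 12 above, and the median was -0.02. Mapk14, the p38α gene, had 5197 ± 115 normalized counts in Mirc11-/- and 5199 ± 110 in wildtype libraries, and Rps6ka1, the RSK1 gene, 4765 ± 558 and 4641 ± 139 (SD, n = 3 each). Both genes differed by less than their spread. Of 9 genes of SRF, its partners and the MEF2 factors 8 had log2 fold changes below 0, and the median was -0.13. Mef2c had 2132, 1938 and 3041 in Mirc11-/- libraries, against 2860, 3263 and 3375 in wildtype libraries. Its groups overlapped through Mirc11-/- library 3, the log2 fold change was -0.44 (SE 0.16), and limma called it lower only in the fit without that library. Mef2d averaged 1704 ± 86.6 and 1786 ± 131, and Elk3 1549 ± 364 and 1807 ± 155 (SD, n = 3 each).

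Of 25 genes known as AP-1 targets in other cells, 18 passed the filter, 10 with log2 fold changes below 0 and 8 above, and the median was -0.06. Mmp3, Mmp10, Mmp12, Mmp13, Il2 and Dcn had 0 reads in every library. Vim, the vimentin gene, had 8998 ± 1613 normalized counts in Mirc11-/- and 9660 ± 532 in wildtype libraries, Tgfb1 4517 ± 349 and 5147 ± 400, and Cd44, an adhesion receptor gene, 3906 ± 140 and 4172 ± 250 (SD, n = 3 each). Mmp9, a protease gene of neutrophils, was the only target that DESeq2 called, and it was higher, at 68.2 ± 15.7 in Mirc11-/- and 23.1 ± 13.5 in wildtype libraries (SD, n = 3 each).

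The sums for erythroid cells and for LSK cells can be set beside the abundant AP-1 subunits library by library. Mirc11-/- libraries 1 and 2 had summed erythroid counts of 58192 and 53337, and library 3 had 24016, within the wildtype range of 22517 to 31944. Fos in Mirc11-/- library 3 (18490) was nearly equal to library 2 (18785) and below all wildtype libraries (31741 to 40372). Jun in Mirc11-/- library 3 (36709) was nearer to the wildtype range (48504 to 65129) than in libraries 1 and 2 (18973 and 27551). The summed LSK markers followed the same order as Jun in the Mirc11-/- libraries, lowest in library 1 and highest in library 3. In a fit that took the erythroid markers' mean log2 level as a covariate, the log2 fold changes were -0.86 (SE 0.16) for Fos, -0.80 (SE 0.22) for Fosb, -0.61 (SE 0.13) for Jun, -0.58 (SE 0.21) for Junb, -0.41 (SE 0.12) for Jund and -3.04 (SE 0.83) for Atf3. They were -0.18 (SE 0.43) for Fosl1, 0.13 (SE 0.23) for Fosl2 and -0.77 (SE 0.62) for Batf3. The differences of Jun, Jund, Fosl1 and Fosl2 were thus smaller by more than 1.5 times, and that of Batf turned to 0.0503 (SE 0.15). The part of erythroid and LSK cell content in the AP-1 differences was not tested beyond this fit.

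**Figure D5:**
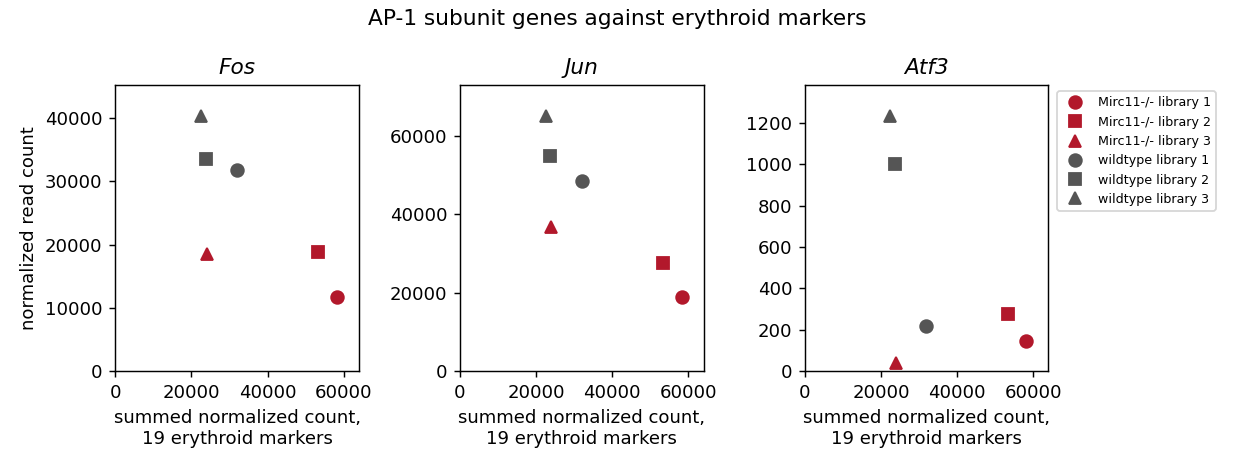
Normalized counts of Fos, Jun and Atf3 against the summed normalized count of 19 erythroid markers in each Mirc11-/- (red) and wildtype (gray) LSK library. Mirc11-/- library 3, at 24016 erythroid counts, lies among the wildtype libraries on the horizontal axis and below them for all 3 genes.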

How the data were processed

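RNA-seq libraries were aligned with STAR and quantified with Cufflinks per the labels, which give the mouse build mm10, while the supplementary methods name a human build. For tool versions and annotation, the sources used here give nothing. The table is named for FPKM, but the values the authors deposited are a signal per gene: whole reads scaled by a factor for each library. Within 0.001, 100% of nonzero values were multiples of the value of 1 read, so reads were recovered. Genes with a mean value of at least 1 (15662) were compared with limma 3.58.1 in R 4.3.3 on log2(value + 1), with a mean-variance trend. The recovered reads were compared with edgeR 4.0.16 and DESeq2 1.42.0. The fit was tested on simulated data. Alternatives were pseudocounts of 0.1 and 0.5, other filters and scalings, no trend, a replicate block, an erythroid covariate and each library left out.

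Lengths, 3′ UTRs and overlaps came from GENCODE vM21, and promoters, miRNAs and coordinates from RefSeq, all on GRCm38. The members and lists were chosen with earlier results of these data known. Of each pathway list the 3 genes with the highest mean were named, with any past the threshold, and the 5 genes outside the family most correlated with Fos. A kinase gene that this rule names is not reported here. Mmp9, Prdx2 and Ccdc85b were named after their values were seen.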

Additional observations from a re-analysis of the deposited data

How the results depend on the processing

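The count of members called by limma, 0, was also 0 with pseudocounts of 0.1 and 0.5, with no filter and a filter of 10 (which removed Batf3), with TMM and median-ratio scaling, without a trend, with the erythroid covariate and by edgeR. It was 5 by DESeq2, and 0 to 4 with a single library left out, the 4 without Mirc11-/- library 3. Over all genes 5 were called by limma, 122 by DESeq2 and 1 to 531 with a single library left out, again the most without Mirc11-/- library 3. Of the pathway lists 0 genes were called by limma, 2 by DESeq2 (Atf4 and Mmp9) and 0 to 2 with a library left out (Atf4 and Mef2c without Mirc11-/- library 3). The sources used here match libraries of the 2 genotypes by replicate number alone. Deviations from the genotype means correlated at 0.31, -0.28 and 0.34 between libraries numbered 1, 2 and 3. Mirc11-/- libraries 1 and 2 correlated best with another number, and library 3 with its own. Such correlations cannot decide whether libraries of the same number were prepared together. With the replicate block 4 members (Fos, Fosb, Jun and Jund), 30 genes in all and 1 gene of the pathway lists (Atf4) were called. The cause of these changes was not tested. The median log2 fold change of the members, -0.88, was -0.60 with the erythroid covariate and -1.02 to -0.62 with a library left out. The log2 fold change of Batf, -0.09, was 0.0503 with the erythroid markers as a covariate and -0.19 to 0.0128 with a library left out, the 0.0128 without Mirc11-/- library 1. With mean transcript lengths 6 of 10 positions in the order of levels were kept in Mirc11-/- and 8 in wildtype HSPCs, and the Fos subfamily stood above the Jun subfamily. Depth limits Batf3, with 3 to 11 reads per library, and Fosl1, with 24 to 62.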
